A study of Homo sapiens with 12 samples.

Results

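The small nucleolar RNAs (snoRNAs) and small Cajal body RNAs (scaRNAs) were examined in U2OS-ER-alpha cells, a human osteosarcoma line that carries estrogen receptor alpha, after SRC-1 siRNA and a short estradiol treatment. A gene was included where a probe set of the array was annotated to exactly 1 symbol beginning SNORD, SNORA or SCARNA; their SNHG host genes were left out. This gave 198 probe sets for 192 symbols among the 29094 tested probe sets, with the probe set of the highest mean kept for each of the 5 symbols that had several. Of the 192, 115 were SNORD genes, 61 SNORA genes and 16 SCARNA genes. A further 76 probe sets name such a symbol together with other symbols and were not counted. SNORD3A (U3), SNORD118 (U8), SNORA73A and SNORA73B (U17) and SCARNA2 had no probe set under this rule.

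Box C/D snoRNAs (SNORD) guide the methylation of ribose in ribosomal RNA, box H/ACA snoRNAs (SNORA) guide the conversion of uridine to pseudouridine, and scaRNAs guide the same changes on spliceosomal RNAs in Cajal bodies. In human cells most of them lie in introns of host genes and are trimmed from the spliced-out intron, so a host transcript and its snoRNA are made together but turned over separately. Many hosts code for ribosomal proteins or translation factors, and others, such as GAS5 and SNHG1, code for no protein.

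The 12 arrays (Affymetrix Human Gene 1.0 ST) all came from the same line, grown in medium with charcoal-stripped serum, and formed 4 groups of 3 samples labelled as biological replicates. Transfection was with siRNA at 50 nM, either non-targeting or against SRC-1 (NCOA1, a coactivator of nuclear receptors), followed by 3 h of ethanol vehicle or of 17-B-estradiol. The groups are written as labelled: NT_V and NT_E for the non-targeting pool with vehicle and estradiol, and siSRC-1_V and siSRC-1_E for SRC-1 siRNA. U2OS cells are known to have little receptor of their own, and the labels do not say whether the receptor-carrying line is 1 clone. Total RNA was isolated with a silica column kit (Qiagen RNeasy), and such kits are known to lose part of the shortest RNAs, so the signals need not follow the cells' amounts; each probe set also reads its own sequence in unspliced host RNA, which cannot be told apart here from the mature RNA. In bulk RNA, fewer cells with an RNA and less of it per cell cannot be told apart either.

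The siRNA target was read first. NCOA1 had log2 signals of 8.81, 8.72 and 8.83 in NT_V, 9.15, 9.06 and 9.02 in NT_E, 6.18, 5.62 and 5.78 in siSRC-1_V and 6.79, 6.88 and 6.92 in siSRC-1_E, which put every SRC-1 siRNA array below every non-targeting array. It fell by 2.93 on the log2 scale under vehicle (SE 0.11, adjusted p = 7.3e-07) and fell by 2.21 under estradiol (adjusted p = 7.92e-06). Among markers of the line, ESR1 averaged 12.11 over the 12 arrays, VIM 12.46, SPARC 12.54, COL1A1 9.12, ALPL 7.58, RUNX2 7.21 and TWIST1 7.11, all above the median of 6.89 over all tested probe sets, while COL1A2 at 6.62 and the bone matrix gene IBSP at 4.93 were below it. Of markers of other cell types, those of blood (PTPRC 4.19, CD3E 5.67) and endothelium (PECAM1 5.09, VWF 5.70, CDH5 6.10) averaged below that median. The epithelial KRT8 (11.16) and EPCAM (7.35) and the neuronal SNAP25 (8.23), RBFOX3 (7.95) and SYP (7.05) were above it, and the epithelial CDH1 (5.92) below. Array medians over the table lay between 6.86 and 6.90. Levels are deposited log2 values, and since probes differ in binding strength they do not rank amounts between genes.

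The signals of the small RNAs spanned most of the array's range. Their median over the 12 arrays was 6.65, from 2.87 to 12.33, against 6.89 for all tested probe sets, and 58 of 192 lay in the lowest 25% of all tested probe sets and 37 in the highest 25%. SNORD genes had a median of 6.15, SNORA genes 7.04 and SCARNA genes 7.04. The lower SNORD median went with the imprinted clusters: the 69 SNORD genes outside SNORD113 to SNORD116 had a median of 7.34.

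The brightest SNORD probe sets were SNORD13 (12.33), SNORD41 (12.31), SNORD33 (12.30), SNORD13P3 (12.24) and SNORD57 (12.08). SNORD13 is U13, which guides an acetylation of the small-subunit ribosomal RNA, and SNORD13P3 is a copy of it that RefSeq lists as a pseudogene. Since near-identical copies can bind the same RNA, their signals cannot be assigned to one copy. Among SNORA genes SNORA71D (11.87), SNORA71C (10.83), SNORA24 (10.38), SNORA38B (10.28) and SNORA3A (10.02) led, and among SCARNA genes SCARNA12 (10.85), SCARNA17 (9.07), SCARNA7 (8.54), SCARNA16 (8.26) and SCARNA10 (8.07). The lowest SNORA probe set stood at 3.97 and the lowest SCARNA probe set, SCARNA23, at 3.31.

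The imprinted clusters, which are best known from brain, differed from each other in signal. All 20 SNORD115 probe sets lay in the lowest 25%, between 2.87 and 3.84 with a median of 3.08. The 20 SNORD116 probe sets, from the region whose loss causes Prader-Willi syndrome, had a median of 4.90 but reached 11.40 for SNORD116-15, 10.27 for SNORD116-14, 9.64 for SNORD116-20 and 8.21 for SNORD116-24. RefSeq places both families within 1 host gene, SNHG14, and copies of a family share most of their sequence. The 6 probe sets of the SNORD113 and SNORD114 cluster had a median of 3.61, and 5 of them lay in the lowest 25%. For comparison, 173 microRNA hairpins had a median of 4.78.

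**Figure D1:**
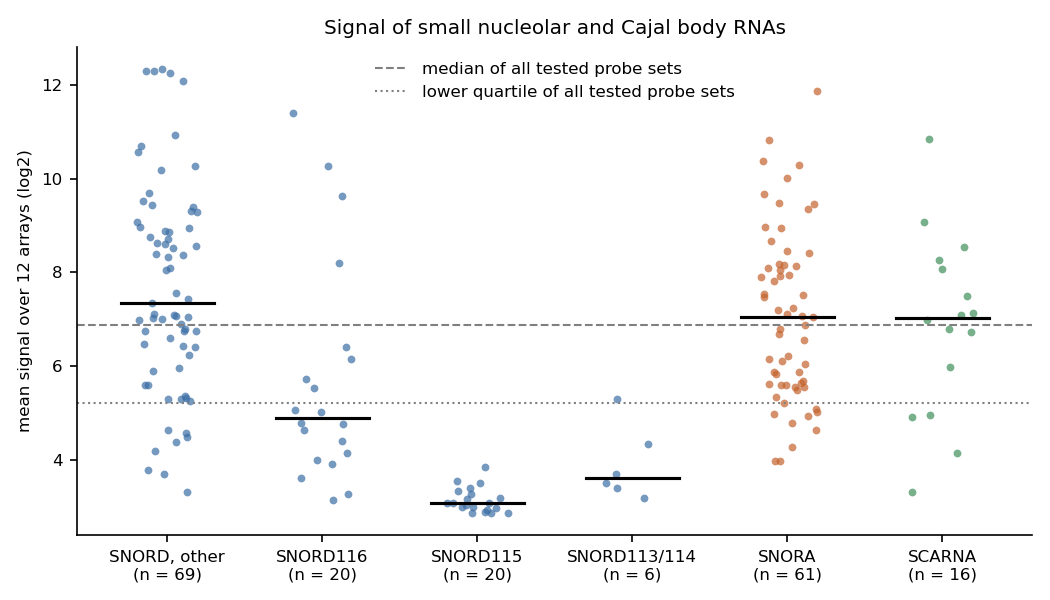
Mean log2 signal over the 12 arrays of each of the 192 RNAs, 1 point each, by class and cluster, with a black bar at each median. The 20 SNORD115 points lie below the dotted lower quartile of all tested probe sets (5.20), 4 SNORD116 points lie at 8.21 or above, and the SNORD, SNORA and SCARNA medians lie near the dashed median of all tested probe sets (6.89).

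The first comparison asked what 3 h of estradiol did to these RNAs with non-targeting siRNA (NT_E minus NT_V), the next the same with SRC-1 siRNA (siSRC-1_E minus siSRC-1_V); they share no arrays. A gene was called where limma's moderated test, fitted on all 12 arrays and all tested probe sets, gave an unadjusted p below 0.01 and a Benjamini-Hochberg adjusted p below 0.05. With non-targeting siRNA 9 of the 192 were called, 8 higher and 1 lower, a share of 4.69% against 2.73% of all tested probe sets (1.85% higher and 0.873% lower). With SRC-1 siRNA 21 were called, all higher, a share of 10.9% against 6.88% (4.49% called higher). In all, 25 were called in at least 1 of the comparisons and 5 in both: SNORD13P2, SNORD52, SNORD43, SNORD102 and SNORA70B. Apart from SNORD13P2 the sizes were small, 1.20-fold to 1.46-fold with non-targeting siRNA and 1.21-fold to 1.73-fold with SRC-1 siRNA. For all called RNAs the estradiol and vehicle arrays did not overlap, as held for 21% and 25.8% of all tested probe sets. The called RNAs were picked by their p in the same comparison, so their lack of overlap is largely set by that choice and adds no support. A further set of probe sets taken for array controls was also higher on the estradiol arrays. The annotation used here does not say what they measure. With their mean on each array in the model, 0 and 0 of the 192 were called (values at the end). The share of all tested probe sets called in that fit is not given here.

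By class, the non-targeting calls were 7 of 115 SNORD (6.09%), 1 of 61 SNORA (1.64%) and 1 of 16 SCARNA genes (6.25%). Of all tested probe sets 2.73% were called. The SRC-1 siRNA calls were 9 SNORD (7.83%), 12 SNORA (19.7%) and 0 SCARNA genes, against 6.88% of all tested probe sets. For SCARNA genes with SRC-1 siRNA, 6 of 16 had an unadjusted limma p below 0.05, as did 23.2% of all tested probe sets, and the smallest adjusted p was 0.0527. The median change of the 192 was 0.064 on the log2 scale with non-targeting siRNA, against -0.011 for all tested probe sets, and 0.102 against -0.016 with SRC-1 siRNA. Outside the imprinted clusters the SNORD median was 0.192 and 0.251, with 53 of 69 changes above 0 in each comparison. The SNORA medians were 0.065 and 0.151 and the SCARNA medians -0.0012 and 0.083. Signs were the same in both comparisons for 161 of 192.

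**Figure D2:**
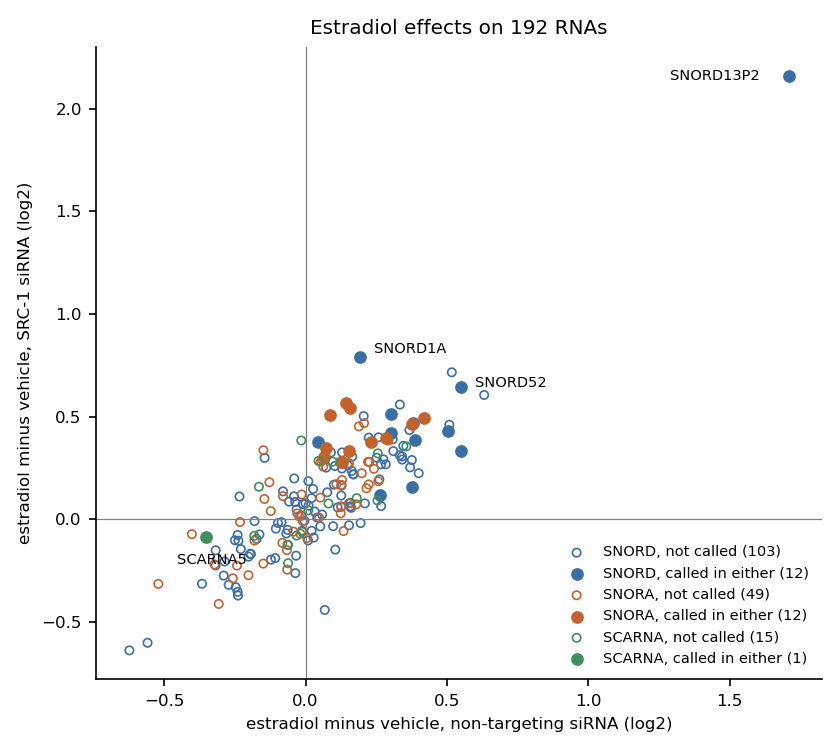
Estradiol minus vehicle on the log2 scale for non-targeting siRNA (horizontal) and SRC-1 siRNA (vertical) for the 192 RNAs, coloured by class and filled where called in either comparison. SNORD13P2 stands apart at 1.71 and 2.16, the other filled points lie between -0.35 and 0.79, and 161 of 192 points have the same sign on both axes.

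The largest change was that of SNORD13P2, a RefSeq pseudogene of U13 that lies within FOXK1, a gene for a forkhead transcription factor. Whether both lie on the same strand was not checked. SNORD13P2 read 6.07, 5.84 and 6.25 in NT_V, 7.68, 7.84 and 7.77 in NT_E, 6.31, 5.45 and 6.30 in siSRC-1_V and 7.77, 8.22 and 8.57 in siSRC-1_E. All estradiol arrays were above all vehicle arrays, and the siSRC-1_V arrays were the most spread. It rose by 1.71 ± 0.23 (3.27-fold), adjusted p = 0.00167, with non-targeting siRNA and by 2.16 ± 0.23 (4.47-fold), adjusted p = 0.000233, with SRC-1 siRNA. The difference between these effects was 0.45 (95% interval -0.28 to 1.18, adjusted p = 0.818), so that neither equality nor a large difference was shown.

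FOXK1, measured by a probe set of its own, rose too. It read 9.91, 9.91 and 9.94 in NT_V, 10.95, 10.94 and 10.88 in NT_E, 9.98, 9.99 and 10.05 in siSRC-1_V and 11.00, 10.96 and 10.92 in siSRC-1_E, with no overlap between estradiol and vehicle arrays. Its change was 1.00 ± 0.04, adjusted p = 1.03e-07, with non-targeting siRNA and 0.95 ± 0.04, adjusted p = 2.84e-07, with SRC-1 siRNA. The other U13 probe sets were not called higher: SNORD13 stood at -0.24 ± 0.11, adjusted p = 0.392, and -0.37 ± 0.11, adjusted p = 0.0719, SNORD13P3 at -0.25 ± 0.12, adjusted p = 0.394, and -0.33 ± 0.12, adjusted p = 0.113, and SNORD13P1, with a mean signal of 3.32, at 0.01 and -0.10. None of these 3 was called in any comparison.

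**Figure D3:**
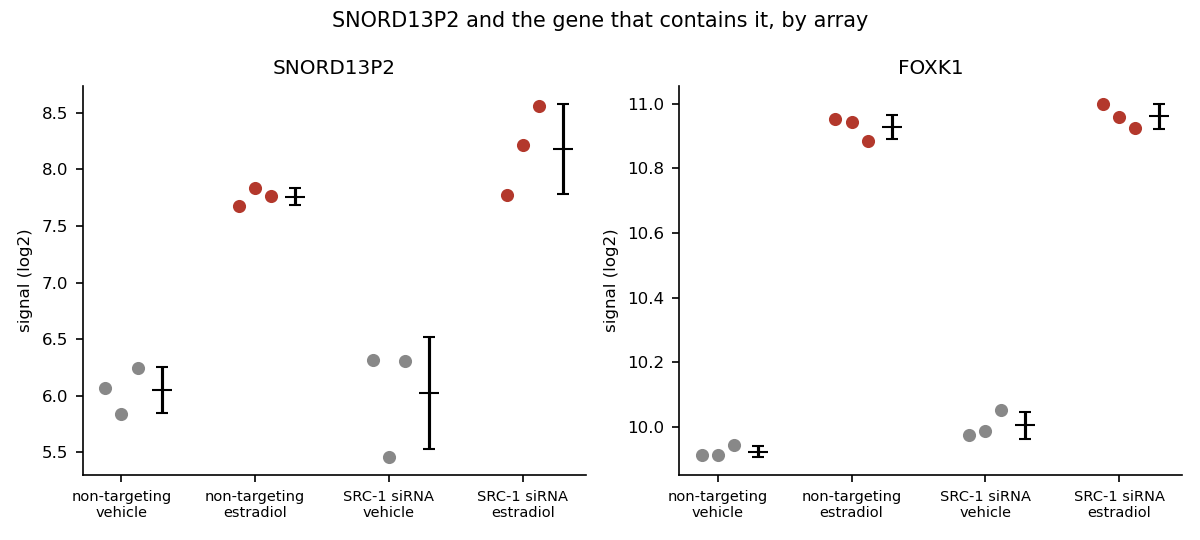
Log2 signal of SNORD13P2 (left) and FOXK1 (right) on each of the 12 arrays, 1 point an array in replicate order, with the group mean ± SD (n = 3) beside it; the vertical axes differ and do not start at 0. In both panels the 6 estradiol arrays (red) lie above the 6 vehicle arrays (grey): SNORD13P2 7.68 to 8.57 against 5.45 to 6.31, FOXK1 10.88 to 11.00 against 9.91 to 10.05.

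The promoters of FOXK1 and of 3 of the host genes without a protein product whose snoRNAs were called are shown. These promoters were read since the treatment acts through a receptor that binds DNA at pairs of the letters GGTCA facing each other. They are the bases just before the RefSeq transcript start, build GRCh38.p14, read 5′ to 3′ along the gene, with matches to GGTCA on either strand in capitals.
FOXK1, chr7:4682045-4682294, plus strand: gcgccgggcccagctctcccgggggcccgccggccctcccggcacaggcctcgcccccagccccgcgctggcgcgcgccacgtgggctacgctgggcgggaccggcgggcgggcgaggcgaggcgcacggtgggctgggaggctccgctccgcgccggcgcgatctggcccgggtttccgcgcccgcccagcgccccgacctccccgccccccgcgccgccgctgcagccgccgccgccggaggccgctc
GAS5, chr1:173869046-173869195, minus strand: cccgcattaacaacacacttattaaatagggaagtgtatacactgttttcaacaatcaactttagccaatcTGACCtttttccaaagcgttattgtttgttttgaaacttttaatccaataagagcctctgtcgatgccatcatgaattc
SNHG1, chr11:62855886-62856035, minus strand: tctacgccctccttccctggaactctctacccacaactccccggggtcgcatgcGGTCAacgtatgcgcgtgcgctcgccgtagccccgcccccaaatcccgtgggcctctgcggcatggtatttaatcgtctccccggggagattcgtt
SNHG32, chr6:31834766-31834915, plus strand: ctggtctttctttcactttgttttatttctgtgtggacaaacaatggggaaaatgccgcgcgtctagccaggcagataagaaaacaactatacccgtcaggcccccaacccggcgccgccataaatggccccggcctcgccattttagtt
The 250 bases of FOXK1 held no GGTCA on either strand, and neither did the 150 bases of SNHG32, the host of SNORD52. GAS5 had 1 match, which begins 79 bases before the start, and SNHG1 had 1, which begins 96 bases before it. Among all 35116 RefSeq promoters in the table, 32.6% held GGTCA in 250 bases and 21.5% in 150 bases. The paired form GGTCANNNTGACC was in none of the 4 and in 0.0399% of all promoters over 250 bases. A match is a run of letters, not a measured binding site. The 4 were a chosen set. The promoters of SNHG16 and SNHG4, genes that also contain called RNAs, were not examined.

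Box C/D RNAs of GAS5, a non-coding gene that yields many snoRNAs and no protein, had changes of 1 sign. All 7 measured (of 10 listed) had changes above 0 in both comparisons, with medians of 0.30 and 0.40. Of all 69 SNORD genes outside the imprinted clusters, these included, 53 had changes above 0 in each comparison. As the 7 share a host gene, their common sign is not 7 separate observations. SNORD74, SNORD81 and SNORD44 were called in 1 comparison each. SNORD74 read 10.64, 10.56 and 10.52 in NT_V, 10.78, 10.86 and 10.86 in NT_E, 10.56, 10.69 and 10.68 in siSRC-1_V and 10.78, 10.73 and 10.77 in siSRC-1_E; it rose by 0.26 ± 0.05, adjusted p = 0.0161, with non-targeting siRNA, and its 0.12 ± 0.05, adjusted p = 0.198, with SRC-1 siRNA did not pass. SNORD44 read 9.40, 9.09 and 9.50 in NT_V, 9.46, 9.65 and 9.78 in NT_E, 9.45, 9.23 and 9.25 in siSRC-1_V and 9.82, 9.73 and 9.92 in siSRC-1_E. It rose by 0.51 ± 0.11, adjusted p = 0.0189, with SRC-1 siRNA, where its 3 estradiol arrays lay above its vehicle arrays, while the groups overlapped with non-targeting siRNA (0.30 ± 0.11, adjusted p = 0.242). SNORD81 read 8.95, 8.80 and 8.77 in NT_V, 9.23, 9.02 and 9.18 in NT_E, 9.17, 8.87 and 8.79 in siSRC-1_V and 9.29, 9.32 and 9.49 in siSRC-1_E and rose by 0.42 ± 0.10, adjusted p = 0.0286, with SRC-1 siRNA. The other 4 were not called: SNORD78 at 0.51 ± 0.13 and 0.46 ± 0.13, SNORD75 at 0.37 ± 0.09 and 0.25 ± 0.09, SNORD77 at 0.33 ± 0.15 and 0.31 ± 0.15, and SNORD79 at 0.26 ± 0.15 and 0.40 ± 0.15.

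Other non-coding hosts gave single calls. SNORD52, within SNHG32, read 8.14, 8.15 and 8.43 in NT_V, 8.60, 8.84 and 8.93 in NT_E, 8.31, 8.12 and 8.18 in siSRC-1_V and 8.84, 8.76 and 8.94 in siSRC-1_E. It rose in both comparisons, by 0.55 ± 0.10, adjusted p = 0.0117, and 0.64 ± 0.10, adjusted p = 0.00299. SNORD30, within SNHG1, read 9.43, 9.33 and 9.41 in NT_V, 9.70, 9.73 and 9.87 in NT_E, 9.75, 9.72 and 9.69 in siSRC-1_V and 9.79, 9.96 and 9.88 in siSRC-1_E. All 3 NT_V arrays lay below the 9 arrays of the other groups. It rose by 0.38 ± 0.06, adjusted p = 0.00423, with non-targeting siRNA, and its 0.16 ± 0.06, adjusted p = 0.138, with SRC-1 siRNA did not pass. SNORD28 of the same host was not called, at 0.28 ± 0.09, adjusted p = 0.157, and 0.27 ± 0.09, adjusted p = 0.0993. SNORD1A, within SNHG16, read 5.28, 5.09 and 5.32 in NT_V, 5.20, 5.42 and 5.65 in NT_E, 5.29, 4.93 and 4.81 in siSRC-1_V and 5.76, 5.71 and 5.94 in siSRC-1_E. It had the largest change after SNORD13P2 with SRC-1 siRNA, a rise of 0.79 ± 0.13 (1.73-fold), adjusted p = 0.0051, and 0.19 ± 0.13, adjusted p = 0.601, with non-targeting siRNA. With the mean of the probe sets taken for array controls in the limma model, the SRC-1 siRNA value was 0.079 (adjusted p = 0.939).

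Within genes for ribosomal proteins, SNORD43, within RPL3, read 8.44, 8.46 and 8.46 in NT_V, 8.78, 8.79 and 8.94 in NT_E, 8.61, 8.50 and 8.60 in siSRC-1_V and 8.97, 8.91 and 8.99 in siSRC-1_E. It rose by 0.39 ± 0.05, adjusted p = 0.00175, and by 0.39 ± 0.05, adjusted p = 0.00136, nearly the same size in both. SNORD102, within RPL21, read 4.40, 4.30 and 4.25 in NT_V, 4.77, 4.68 and 5.01 in NT_E, 4.77, 4.35 and 4.30 in siSRC-1_V and 4.89, 4.91 and 4.90 in siSRC-1_E, and rose by 0.50 ± 0.11, adjusted p = 0.0401, and 0.43 ± 0.11, adjusted p = 0.048, with overlap in neither comparison. SNORD4A, within RPL23A, read 8.79, 8.59 and 8.52 in NT_V, 8.83, 9.08 and 9.14 in NT_E, 8.87, 8.54 and 8.56 in siSRC-1_V and 9.26, 9.00 and 9.11 in siSRC-1_E. It rose with SRC-1 siRNA (0.47 ± 0.11, adjusted p = 0.0316) and did not pass with non-targeting siRNA (0.38 ± 0.11, adjusted p = 0.13). SNORD95 lies within RACK1, the gene of a protein bound to the small ribosomal subunit. It read 8.71, 8.70 and 8.76 in NT_V, 8.71, 8.76 and 8.84 in NT_E, 8.52, 8.52 and 8.62 in siSRC-1_V and 9.03, 8.94 and 8.82 in siSRC-1_E, and rose with SRC-1 siRNA, by 0.38 ± 0.06, adjusted p = 0.0034, against 0.05 ± 0.06, adjusted p = 0.815, with non-targeting siRNA. Not every such host followed: of the 4 measured RNAs of RPL13A, 1 change was above 0 in each comparison, and the bright SNORD33 stood at -0.20 ± 0.08, adjusted p = 0.261, and -0.18 ± 0.08, adjusted p = 0.18.

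SNORD14E lies within HSPA8, a heat shock protein gene, and is a copy of U14, which takes part in processing the small-subunit ribosomal RNA. It read 8.16, 7.75 and 7.80 in NT_V, 8.44, 8.47 and 8.45 in NT_E, 8.43, 8.35 and 8.44 in siSRC-1_V and 8.74, 8.58 and 8.89 in siSRC-1_E. As for SNORD30, the 3 NT_V arrays were the lowest. It rose by 0.55 ± 0.10 (1.46-fold), adjusted p = 0.0128, with non-targeting siRNA and did not pass with SRC-1 siRNA (0.33 ± 0.10, adjusted p = 0.0771). Its neighbour SNORD14C stood at 0.27 ± 0.07, adjusted p = 0.0844, and 0.06 ± 0.07, adjusted p = 0.635, neither of which passed.

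All 12 H/ACA RNAs that were called passed with SRC-1 siRNA, and 1 of them also with non-targeting siRNA; for none was the difference between the effects called. SNORA70B, within the deubiquitinase gene USP34, read 4.77, 4.93 and 4.96 in NT_V, 5.11, 5.31 and 5.37 in NT_E, 4.80, 4.73 and 4.69 in siSRC-1_V and 5.18, 5.23 and 5.20 in siSRC-1_E and was the SNORA gene called in both, at 0.38 ± 0.07, adjusted p = 0.015, and 0.46 ± 0.07, adjusted p = 0.00281. SNORA74A, within MATR3 and SNHG4, read 7.50, 7.24 and 7.44 in NT_V, 7.41, 7.57 and 7.62 in NT_E, 7.36, 7.28 and 7.23 in siSRC-1_V and 7.80, 7.94 and 7.82 in siSRC-1_E. It rose by 0.56 ± 0.08 (1.48-fold), adjusted p = 0.00119, and had 0.14 ± 0.08, adjusted p = 0.473, with non-targeting siRNA. Its siSRC-1_E arrays lay above the other 9. SNORA19, within the translation initiation gene EIF3A, read 4.87, 4.74 and 4.77 in NT_V, 4.97, 5.02 and 4.86 in NT_E, 4.84, 4.54 and 4.75 in siSRC-1_V and 5.07, 5.19 and 5.49 in siSRC-1_E, and rose by 0.54 ± 0.10, adjusted p = 0.0107. SNORA75, within NCL (nucleolin), read 6.97, 6.87 and 6.86 in NT_V, 7.10, 7.38 and 7.47 in NT_E, 7.21, 6.84 and 7.11 in siSRC-1_V and 7.42, 7.61 and 7.61 in siSRC-1_E. It rose by 0.49 ± 0.11, adjusted p = 0.0224, and its 0.42 ± 0.11, adjusted p = 0.0844, with non-targeting siRNA was of like size but did not pass. SNORA2B, within KANSL2, read 4.76, 4.67 and 4.60 in NT_V, 4.60, 4.77 and 4.94 in NT_E, 4.80, 4.55 and 4.46 in siSRC-1_V and 5.12, 4.82 and 5.39 in siSRC-1_E, and rose by 0.51 ± 0.14, adjusted p = 0.0499. Its siSRC-1_E arrays ran from 4.82 to 5.39, and the lowest of them stood next to the highest siSRC-1_V array, at 4.80.

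The other 7 H/ACA RNAs called with SRC-1 siRNA changed by 0.28 to 0.39. SNORA54, within the histone chaperone gene NAP1L4, read 6.56, 6.19 and 6.29 in NT_V, 6.54, 6.62 and 6.73 in NT_E, 6.43, 6.45 and 6.45 in siSRC-1_V and 6.74, 6.87 and 6.89 in siSRC-1_E (0.39 ± 0.09, adjusted p = 0.0189). SNORA33, within RPS12, read 5.25, 5.35 and 5.42 in NT_V, 5.57, 5.70 and 5.45 in NT_E, 5.57, 5.30 and 5.51 in siSRC-1_V and 5.77, 5.72 and 6.02 in siSRC-1_E (0.38 ± 0.10, adjusted p = 0.0395). Within CNOT1, the scaffold of a deadenylase complex, both measured RNAs were called. SNORA50A read 8.51, 8.45 and 8.26 in NT_V, 8.44, 8.54 and 8.45 in NT_E, 8.38, 8.15 and 8.40 in siSRC-1_V and 8.51, 8.70 and 8.77 in siSRC-1_E (0.35 ± 0.09, adjusted p = 0.042). SNORA46 read 5.57, 5.47 and 5.63 in NT_V, 5.67, 5.64 and 5.73 in NT_E, 5.53, 5.43 and 5.53 in siSRC-1_V and 5.80, 5.75 and 5.77 in siSRC-1_E (0.28 ± 0.05, adjusted p = 0.00767). In each of these 4 the siSRC-1_E arrays were all above the siSRC-1_V arrays. SNORA6, within RPSA, read 7.50, 7.22 and 7.34 in NT_V, 7.53, 7.43 and 7.55 in NT_E, 7.33, 7.34 and 7.39 in siSRC-1_V and 7.76, 7.71 and 7.57 in siSRC-1_E (0.33 ± 0.07, adjusted p = 0.0208). SNORA16B, within PPP2R5A, read 4.31, 4.24 and 4.08 in NT_V, 4.17, 4.27 and 4.39 in NT_E, 4.17, 4.16 and 4.09 in siSRC-1_V and 4.46, 4.34 and 4.51 in siSRC-1_E (0.30 ± 0.07, adjusted p = 0.0344). SNORA67, within the translation initiation gene EIF4A1, read 8.68, 8.56 and 8.68 in NT_V, 8.65, 8.80 and 8.85 in NT_E, 8.50, 8.45 and 8.50 in siSRC-1_V and 8.78, 8.69 and 8.82 in siSRC-1_E (0.28 ± 0.06, adjusted p = 0.0188). In these 3 too the groups did not overlap with SRC-1 siRNA, and SNORA16B was among the lowest signals called.

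One RNA was called lower. SCARNA5, a Cajal body RNA within the autophagy gene ATG16L1, read 7.23, 7.25 and 7.38 in NT_V, 6.96, 6.99 and 6.86 in NT_E, 7.22, 7.30 and 7.14 in siSRC-1_V and 7.14, 7.09 and 7.17 in siSRC-1_E. The NT_E arrays were the 3 lowest of the 12. It fell by 0.35 on the log2 scale with non-targeting siRNA (SE 0.06, adjusted p = 0.00721), and its change with SRC-1 siRNA was -0.09 ± 0.06, adjusted p = 0.408. SCARNA12, the brightest scaRNA, stayed between 10.77 and 11.01 on all arrays (changes -0.01 ± 0.05, adjusted p = 0.953, and -0.06 ± 0.05, adjusted p = 0.538). SCARNA10 stood at -0.06 ± 0.08 and -0.21 ± 0.08, neither called.

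Several of the brightest RNAs had changes below 0. In the highest 25% of signal, the 37 small RNAs had median changes of -0.085 and -0.019, against 0.129 and 0.198 for the 47 in the 25% just above the lowest. With non-targeting siRNA 12 of these 37 had all estradiol arrays below all vehicle arrays and 9 the reverse, against 14% lower and 15.7% higher for all tested probe sets of the same signal band (10.9% and 10.1% over all bands). With SRC-1 siRNA the order was turned, 5 lower and 11 higher, against 13.4% and 18.4% in that band (12.8% and 12.9% over all bands). By limma 2 and 3 of the 37 were called with non-targeting and SRC-1 siRNA (5.41% and 8.11%), all higher. These shares were near the 4.74% and 8.15% of all tested probe sets in that band (2.73% and 6.88% over all bands). SNORA71D, 1 of 3 bright copies within SNHG17, read 12.04, 12.01 and 11.95 in NT_V, 11.86, 11.80 and 11.42 in NT_E, 12.28, 12.09 and 11.92 in siSRC-1_V and 11.70, 11.50 and 11.85 in siSRC-1_E. Its changes, -0.31 ± 0.13, adjusted p = 0.314, and -0.41 ± 0.13, adjusted p = 0.0762, were not called, whereas SNHG17 itself stood at 0.20, not called, and rose by 0.24. SNORA38B (-0.40 ± 0.13) and SNORA24 (-0.32 ± 0.15) were likewise below 0 with non-targeting siRNA and not called.

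The SNORD116 medians were -0.231 for non-targeting and -0.172 for SRC-1 siRNA, opposite in sign to those of the 69 SNORD genes outside the clusters. The 6 SNORD113 and SNORD114 probe sets also had medians below 0, -0.046 and -0.163, with 2 and 1 changes above 0. The SNORD115 medians were above 0, at 0.050 and 0.059. Of the 20 SNORD116 probe sets, 2 and 4 had a change above 0. None was called in either comparison by limma; 1 and 3 of them had an unadjusted p below 0.05, where all tested probe sets gave 13.3% and 23.2%. Their residual SD was wider (median 0.210, against 0.138 for the 69 SNORD genes outside the clusters). SNORD116-15 stood at -0.27 ± 0.17 and -0.32 ± 0.17, and SNORD116-24 at -0.62 ± 0.30 and -0.64 ± 0.30. As the copies share sequence, their common sign is not 20 separate observations.

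Changes of the called RNAs were set against the genes that contain them. RefSeq (GRCh38.p14, used for names and neighbours) lists all 192 and places 189 within a named gene. For 98 of them that gene had a probe set of its own, annotated to its symbol alone, covering 76 genes. Strand was not checked, so an RNA may lie on the strand opposite to its containing gene. Where the genes' probe sets lie in the genome was not checked either. With non-targeting siRNA 5 called RNAs had such a gene; their median change was 0.39 and that of their genes -0.0065. With SRC-1 siRNA the 12 such RNAs had a median of 0.46 and their genes 0.0088. These RNAs were picked by their change in the same comparison and the genes were not. The gap between the medians is therefore in part set by that choice. Where several genes contained an RNA, the gene of the highest mean signal was used. Of the 76 genes 3 and 6 were called, against 2.73% and 6.88% of all tested probe sets. FOXK1 with SNORD13P2 was the single pair called on both sides in each comparison. Without FOXK1, the genes' changes lay between -0.031 and 0.050 and between -0.031 and 0.123. Across the 98 pairs Pearson's r was 0.436 and 0.422, and -0.062 and -0.041 over 97 pairs without SNORD13P2; several RNAs share a gene, so the pairs are not independent.

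**Figure D4:**
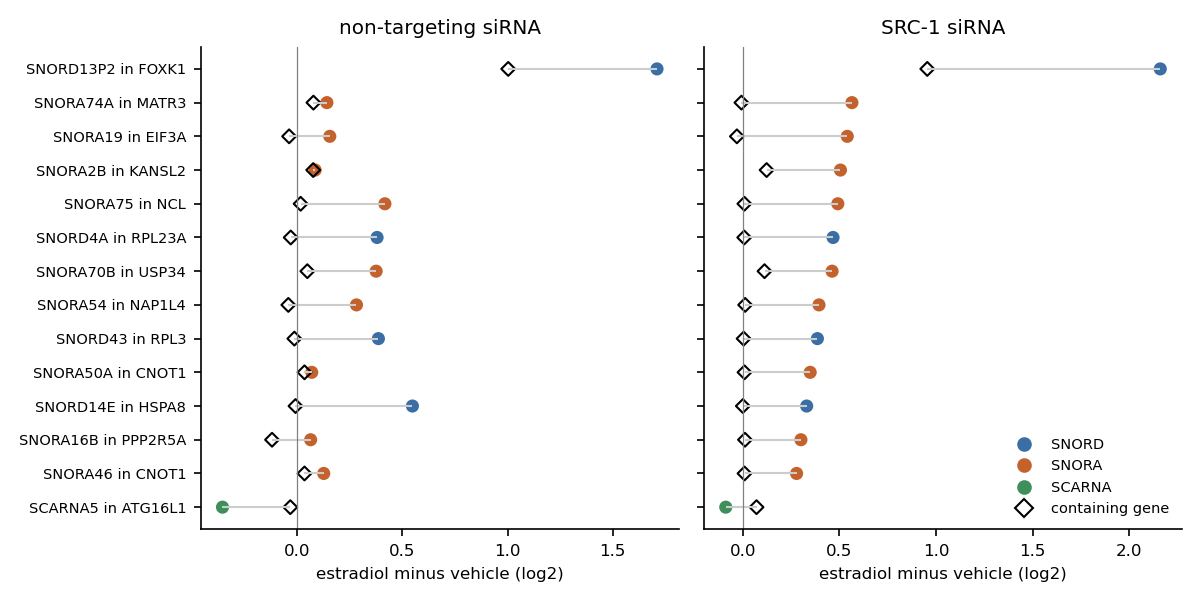
Estradiol minus vehicle on the log2 scale for the 14 RNAs called in either comparison whose containing gene has a probe set of its own (filled circles, by class) and for that gene (open diamonds), with non-targeting siRNA (left) and SRC-1 siRNA (right). FOXK1 lies at 1.00 and 0.95, while the other genes lie between -0.12 and 0.12 in both panels. The RNAs were chosen by their calls and the genes were not.

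Over 27 lists of snoRNAs by host gene, 19 held a measured RNA, 40 in all. Of these 40, 32 and 30 had changes above 0 with non-targeting and SRC-1 siRNA, and 4 and 7 were called. Over all 192 RNAs 60.9% and 65.6% of changes were above 0, and over all tested probe sets 45.5% and 44.7%, of which 2.73% and 6.88% were called. Among the 11 lists with 2 or more RNAs, 7 had all changes above 0 in both comparisons, those of GAS5, SNHG1, SNHG5, NCL, HSPA8, RPSA and RPL21. Of the host genes on the lists 13 had a probe set annotated to their symbol alone, whose place in the genome was not checked. By limma 0 of these 13 were called in any comparison (0 to 2 of 13 had an unadjusted p below 0.05). Their estradiol changes were -0.048 to 0.116 and -0.037 to 0.104.

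The genes of proteins that bind or assemble these RNAs were not called. Among box C/D core proteins (2 measured, FBL, the methyltransferase, and NOP58), H/ACA core proteins (4, with DKC1, the pseudouridine synthase), assembly and trafficking factors (13) and Cajal body factors (2), 0 of 21 were called in any comparison by limma (0 to 2 had an unadjusted p below 0.05), and their estradiol changes lay between -0.112 and 0.121. Of all tested probe sets 2.73% and 6.88% were called in the estradiol comparisons. The siRNA comparisons called 1.21% and 1.8%, and the difference of the effects 0%. At these shares few calls would be expected among 21 genes, or among the 9 below. FBL stood at 0.04 ± 0.04 and -0.02 ± 0.04, and DKC1 at -0.02 ± 0.05 and -0.04 ± 0.05. Of 9 proteins of the U3 processome, which begins small-subunit assembly, 1 was called. WDR43 rose by 0.24 ± 0.04, adjusted p = 0.0126, and 0.32 ± 0.04, adjusted p = 0.00136, while SNORD53, which lies within it, stood at 0.01 ± 0.05, adjusted p = 0.96, and 0.19 ± 0.05, adjusted p = 0.0528, neither called. The WDR43 call with non-targeting siRNA was lost on the compared arrays alone and without NT_V replicate 1, NT_V replicate 2 or NT_E replicate 3 (0.24, 0.22 and 0.22). With the mean of the probe sets taken for array controls in the model both WDR43 calls were lost (0.18 and 0.18).

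The effect of SRC-1 siRNA itself was tested next. Under vehicle (siSRC-1_V minus NT_V) 2 of 192 were called, both higher, a share of 1.04% against 1.21% of all tested probe sets (0.265% called higher). They were SNORD14E (0.50 ± 0.10, adjusted p = 0.0394) and SNORD30 (0.33 ± 0.06, adjusted p = 0.0201), the pair whose NT_V arrays were the lowest. These same NT_V arrays enter the non-targeting estradiol comparison. Both calls were lost when the fit used only the compared arrays, and without any 1 of NT_V replicates 2 and 3 or siSRC-1_V replicates 1, 2 and 3, which left 0 called. Without NT_V replicate 1, any NT_E replicate or siSRC-1_E replicate 1, 1 was called.

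Under estradiol (siSRC-1_E minus NT_E) 0 of 192 were called by limma, against 1.8% of all tested probe sets. An unadjusted p below 0.05 was reached by 29 of 192 (15.1%), near the 15.8% of all tested probe sets, and the smallest adjusted p was that of SNORA74A (0.32 ± 0.08, adjusted p = 0.0645). With trended, robust variances 1 was called, without the lowest 40% of probe sets 1, without NT_V replicate 2 1 and without NT_E replicate 3 2. SNORD13 and SNORD13P3 had changes of -0.26 and -0.32 under vehicle and of -0.39 and -0.41 under estradiol, none of which passed.

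Whether the estradiol effect depended on SRC-1 was tested as the difference of the effects. Of the 192 RNAs 0 passed this limma test, as did 0 of all tested probe sets (0%). An unadjusted p below 0.05 was reached by 11 of 192 (5.73%), against 7.22% of all tested probe sets. The smallest adjusted p values were those of SNORD95, at 0.33 (95% interval 0.15 to 0.52, adjusted p = 0.486), and SNORA74A, at 0.42 (95% interval 0.18 to 0.66, adjusted p = 0.486). For SNORD1A the difference was 0.60 (95% interval 0.18 to 1.02, adjusted p = 0.582), and for SCARNA5 0.26 (95% interval 0.08 to 0.45, adjusted p = 0.582). The larger count of calls with SRC-1 siRNA is therefore not a shown difference between the siRNAs, and the median 95% interval of a difference reached 0.313 to either side.

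The counts depended on single arrays. How many of all tested probe sets were called in each fit without 1 array is not given here. The counts therefore do not show whether these RNAs were less steady than others. With non-targeting siRNA, 9 became 5 without NT_V replicate 2, 14 without NT_E replicate 1, 4 without NT_E replicate 2 and 5 without NT_E replicate 3. With SRC-1 siRNA, 21 became 36 without siSRC-1_V replicate 1, 9 and 12 without siSRC-1_V replicates 2 and 3, and 13 and 10 without siSRC-1_E replicates 1 and 3. SNORD13P2, SNORD30, SNORD43 and SCARNA5 were called in all 12 fits that left out 1 array with non-targeting siRNA, and SNORD13P2, SNORD1A, SNORD43, SNORD52, SNORD95, SNORA19, SNORA46, SNORA70B and SNORA74A in all 12 with SRC-1 siRNA. The other 5 and 12 calls were lost in at least 1 such fit, and were made in 3 to 9 and in 2 to 9 of the 12. All 5 were lost without NT_E replicate 2, and all 12 without siSRC-1_V replicate 2. On the compared arrays alone, SNORA70B, SNORD14E, SNORD52 and SNORD74 were not called with non-targeting siRNA, nor were SNORA19, SNORA2B, SNORA33, SNORA50A, SNORA75, SNORD102, SNORD4A and SNORD81 with SRC-1 siRNA, so that 5 of the 9 and 13 of the 21 calls were kept. SNORD102 was the least kept with non-targeting siRNA (3 of 12) and SNORD102 and SNORA2B with SRC-1 siRNA (2 of 12).

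The probe sets taken for array controls had average changes of the same sign as the small RNAs. In the highest 25% of signal the median changes were opposite in sign (values below). The annotation used here does not say what the probe sets taken for array controls measure. The 4203 probe sets left out of the tests, whose identifiers lie below the first listed with a gene and which were taken for array controls, averaged -0.076 ± 0.043 in NT_V, 0.032 ± 0.036 in NT_E, -0.091 ± 0.067 in siSRC-1_V and 0.135 ± 0.042 in siSRC-1_E (SD, n = 3) as deviations from each probe set's mean over the 12 arrays. The 192 small RNAs averaged -0.051 ± 0.039, 0.013 ± 0.017, -0.040 ± 0.088 and 0.077 ± 0.067, while all tested probe sets stayed within 0.003 of 0 in every group. Within siSRC-1_V, replicate 1 stood at 0.062 for the small RNAs, above replicates 2 and 3 at -0.094 and -0.087. Over the 4 bands of signal the left-out probe sets had median changes of 0.106, 0.169, 0.143 and 0.0082 with non-targeting siRNA, from the lowest to the highest 25%, and 0.243, 0.364, 0.253 and 0.014 with SRC-1 siRNA; the small RNAs had 0.052, 0.129, 0.097 and -0.085, and 0.061, 0.198, 0.214 and -0.019.

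With the left-out probe sets' mean on each array as a covariate, 0 of the 192 were called in either estradiol comparison, and 23 and 20 had an unadjusted limma p below 0.05. The matching shares of all tested probe sets are not given here, so these counts do not set the small RNAs apart. The covariate nearly follows the treatment, so the median SE of a change grew from 0.101 to 0.123 with non-targeting siRNA and to 0.200 with SRC-1 siRNA. The median of the 9 called changes went from 0.39 to 0.32 and that of the 21 from 0.43 to 0.10. All 9 kept their sign, and 16 of the 21. SNORD13P2 stood at 1.19 (adjusted p = 0.0558) and 1.08 (adjusted p = 0.439), and FOXK1 stayed called at 1.03 and 1.01. The part of what the left-out probe sets measure in the small RNAs' changes was otherwise not tested.

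**Figure D5:**
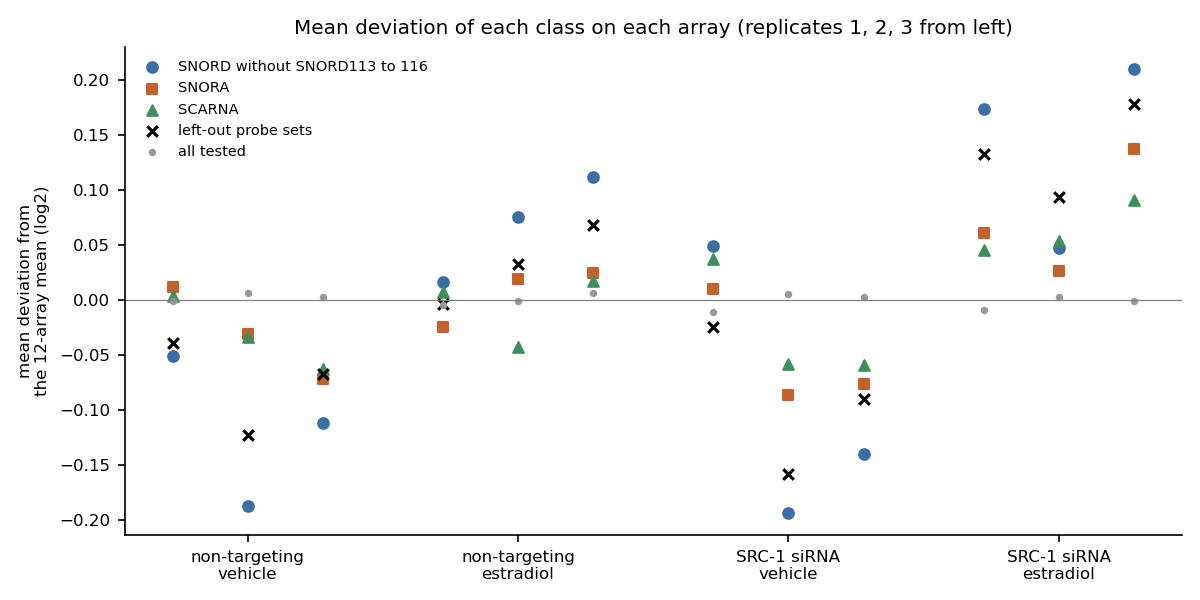
Mean deviation from the 12-array mean (log2) on each array, replicates 1 to 3 from left within each group, for the SNORD genes outside the SNORD113 to SNORD116 clusters, SNORA genes, SCARNA genes, the left-out probe sets and all tested probe sets. The left-out probe sets and the 69 SNORD genes are both higher on the estradiol arrays (group means 0.032 and 0.135, and 0.068 and 0.144) than on the vehicle arrays (-0.076 and -0.091, and -0.117 and -0.095), while all tested probe sets stay near 0.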

How the data were processed

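Expression was measured on 12 arrays, 1 per sample. The deposited log2 values were used as given; per the submitters' processing notes and the series' design text the authors used the affy and limma packages, while versions, background correction, normalization and genome build are not given in the sources used here. Single-array scanner files were not analysed here. Probe sets were named through the platform annotation, of which 19460 tested probe sets had 1 symbol, 1754 several and 7880 none. The 4203 probe sets with identifiers below 7896740, the first listed with a gene, were left out.

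From the log2 values, limma 3.58.1 in R 4.3.3 fitted 1 mean per group over all 12 arrays and 29094 probe sets (lmFit and eBayes), with Benjamini-Hochberg adjustment over all of them; thresholds were those of the design text. Errors printed with ± are SE of a change, or SD where stated, with 3 arrays per group, whose number limits the precision. The p-values measure the spread between samples labelled as biological replicates. The script was tested on simulated data. Samples were grouped by their labels. Alternatives were a replicate block, compared arrays only, a filter on low values, quantile normalization, median centring, trended and robust variances, all probe sets, the covariate described above, every probe set of a symbol, and leaving out each array. Called RNAs, the brightest of each class, known members and listed hosts and proteins are named. The RNAs, lists and this naming rule were chosen with earlier results of these data known. Promoters came from RefSeq, and the small RNAs' own sequences are not used here.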

Additional observations from a re-analysis of the deposited data

How the results depend on the processing

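Counts of called RNAs under other settings were as follows. The matching shares of all tested probe sets are not given here. For estradiol with non-targeting siRNA (9), the compared arrays alone gave 5, trended and robust variances 14 and the covariate 0; leaving out 1 array gave 4 to 14. For estradiol with SRC-1 siRNA (21), the compared arrays alone gave 15, the covariate 0 and leaving out 1 array 9 to 36. For SRC-1 siRNA under vehicle (2), the compared arrays alone gave 0, median centring 1 and testing all probe sets 1, and leaving out 1 array 0 to 2. Under estradiol (0), leaving out the lowest 40% of probe sets gave 1, trended and robust variances 1, and leaving out 1 array 0 to 2. For the difference of the estradiol effects, every setting that was run gave 0. With the covariate described above 5 changes called with SRC-1 siRNA turned sign, to -0.155 for SNORA2B, -0.027 for SNORA75, -0.036 for SNORD102, -0.079 for SNORD44 and -0.061 for SNORD4A; the cause of the turn was not tested.

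Samples share replicate numbers, which the labels do not tie to a shared day or culture. Residuals of same-numbered samples correlated between -0.035 and 0.209 (median 0.063, 6 of 18 over 0.1). Those of differently numbered samples of different groups had a median of -0.021, with 2 of 36 over 0.1. Of the 12 arrays 10 correlated best with an array of their own number. Same-numbered samples were thus somewhat more alike, and the main fit did not use the numbers. A fit that did is given next. With the replicate number as a block, 10, 22, 2, 0 and 0 were called in the 5 comparisons, against 9, 21, 2, 0 and 0 without it. The block kept 8 of the 9 and 16 of the 21; SNORD102 was not called under it in either estradiol comparison (adjusted p = 0.0528 and 0.0512), nor were SNORA16B, SNORA2B, SNORA33 and SNORA50A with SRC-1 siRNA (adjusted p = 0.0528 to 0.0644).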
